A study of Drosophila melanogaster with 3 samples.

Results

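Insv peaks at single protein-coding promoters are the regions described here. They are places where the Insv-GFP fusion was mapped close to a start of a protein-coding gene. Places near the outermost start of a gene arranged back to back with a neighbour are left out. The regions were chosen by position only. A peak entered where its summit lay within 500 bp of a protein-coding transcription start site (TSS). Summits within 500 bp of the outermost TSS of a gene in a head-to-head pair were left out. Such a pair is 2 protein-coding genes on opposite strands whose outermost starts are at most 1000 bp apart. The start of the minus-strand gene lies to the left of, or level with, that of the plus-strand gene. This rule took 1767 of the 4753 peaks that passed the authors' test of irreproducibility between replicates (IDR), or 37.2%. Of the others, 1237 lay at head-to-head promoters and 1749 away from protein-coding starts.

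Insv (Insensitive) is a nuclear protein with a BEN domain, a DNA-binding fold. In Drosophila it is known as a corepressor that acts with Su(H) on Notch target genes and as a direct binder of a short palindrome, and it is related to the BEN-domain subunits of the Elba complex, which binds a similar asymmetric site and acts at insulators. A promoter with a single direction of coding transcription can carry several kinds of short element: the TATA box and the Initiator of regulated genes, the sites of M1BP and DREF found at many housekeeping genes, and GAGA repeats, the sites of GAGA factor.

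The chromatin came from whole embryos of Drosophila melanogaster, with both sexes together and ages from 0 to 24 h, of a single transgenic line that carries a C-terminal GFP fusion of Insv, and was precipitated with an anti-GFP antibody. There were 3 biological replicates and no second genotype, treatment or stage, so every comparison here is between regions or genes of the same embryos. Whole embryos mix all tissues over the whole of embryogenesis. A peak score therefore cannot tell weak binding in many nuclei from strong binding in few. Read depth is not given in the sources used here. At a q-value under 0.05, the 3 replicate lists held 8416, 13955 and 12195 regions.

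The 1767 peaks lay at 1543 separate places, since overlapping calls can hold several summits, and had 1432 nearest genes. A single protein-coding gene started within 500 bp at 1597 of them, while at the other 170 several did. Single therefore describes the arrangement and not always the number of genes: 1176 peaks (66.6%) were nearest to the outermost TSS of an unpaired gene, and 591 (33.4%) were nearest to an inner, alternative TSS, 428 of them of unpaired genes and 163 of genes whose outermost start is in a pair. When the 4753 strongest regions of each replicate were sorted by the same rule, 1741, 1787 and 1762 fell into this class, a share of 37.1% ± 0.485 (SD, n = 3). On chromosome 4, which has no head-to-head peak, 14 of 26 peaks were of this class (53.8%), against 35.8% to 38.7% on the other arms.

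The sequences around the strongest summits show the elements that the results turn on. Each line below runs 50 bp to either side of a summit, on the plus strand of dm6, with the named element in capitals. Windows that touch an annotated exon were passed over, so these are the strongest of those left. The first 4 hold the Insv palindrome CCAATTGG and lie upstream of mRpL13, which encodes a mitochondrial ribosomal protein, mid, which encodes a T-box transcription factor, Polr1D, which encodes a subunit shared by RNA polymerases I and III, and sens-2, which encodes a zinc-finger factor of the Senseless family.
mRpL13 (chr2L:18859282-18859382): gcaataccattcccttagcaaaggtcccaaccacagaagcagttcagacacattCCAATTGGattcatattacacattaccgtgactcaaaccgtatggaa
mid (chr2L:5461364-5461464): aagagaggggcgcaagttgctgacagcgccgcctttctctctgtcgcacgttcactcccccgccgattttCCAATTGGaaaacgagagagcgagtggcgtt
Polr1D (chr2L:19133546-19133646): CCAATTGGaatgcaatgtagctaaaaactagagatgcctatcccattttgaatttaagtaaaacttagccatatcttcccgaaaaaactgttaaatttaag
sens-2 (chr2L:6821793-6821893): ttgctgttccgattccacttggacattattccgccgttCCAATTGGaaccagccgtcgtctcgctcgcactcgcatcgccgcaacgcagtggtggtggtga

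The next 2 hold the Elba site CCAATAAG, written on the other strand at Polr3A, and no Insv site. Polr3A encodes the largest subunit of RNA polymerase III and mop a protein of endosomal sorting.
Polr3A (chrX:15762817-15762917): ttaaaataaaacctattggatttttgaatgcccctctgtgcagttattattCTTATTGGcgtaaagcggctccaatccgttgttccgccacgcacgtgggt
mop (chr3L:14775759-14775859): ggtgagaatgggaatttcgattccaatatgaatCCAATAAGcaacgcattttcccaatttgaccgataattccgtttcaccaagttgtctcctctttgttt

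These 2 hold the M1BP site GGTCACAC, here on the minus strand. Dpm3, a subunit of the enzyme that makes dolichol-phosphate mannose, had the strongest peak of the whole series, and the window at muc also holds the Insv palindrome, left in lower case.
Dpm3 (chr3R:13403187-13403287): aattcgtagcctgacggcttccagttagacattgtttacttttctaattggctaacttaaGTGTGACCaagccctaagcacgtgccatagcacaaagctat
muc (chr2L:7426641-7426741): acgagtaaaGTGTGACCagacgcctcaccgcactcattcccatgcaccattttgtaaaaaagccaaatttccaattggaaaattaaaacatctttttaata

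These 2 hold the DRE, TATCGATA, the site of DREF. Remo and Ptpmeg, a tyrosine phosphatase gene, are the nearest genes.
Remo (chrX:13287927-13288027): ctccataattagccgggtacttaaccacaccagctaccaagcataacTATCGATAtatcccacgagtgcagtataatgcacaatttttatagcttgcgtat
Ptpmeg (chr3L:347343-347443): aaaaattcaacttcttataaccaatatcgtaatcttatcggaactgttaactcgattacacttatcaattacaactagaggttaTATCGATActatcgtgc

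The last shows the strongest window with none of these 4 elements, at an inner TSS of rdx, which encodes a ubiquitin ligase adaptor that acts on Hedgehog signalling.
rdx (chr3R:14026308-14026408): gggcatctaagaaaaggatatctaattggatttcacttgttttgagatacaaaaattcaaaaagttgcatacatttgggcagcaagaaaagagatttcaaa

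Summits lay mainly just upstream of the start. Of the 1767, 1314 were upstream of the nearest protein-coding TSS, or 74.4% (Wilson 95% interval, 72.3% to 76.3%), 7 fell on the TSS base and 446 were downstream. The share upstream was 74.96% in replicate 1, 71.4% in replicate 2 and 69.5% in replicate 3. The median summit was 72 bp upstream of the TSS (offset -72 bp), with quartiles at -199.5 and 2 bp. The fullest interval of 50 bp was the one that ends at the TSS, with 320 summits (18.1%), and the counts fell away faster on the transcribed side. Peaks at inner starts (73.8% upstream) and at outermost starts (74.7% upstream) had nearly the same share, and so did the strongest 10% of the peaks (66.7%) and the weakest 10% (68.4%), at a lower level.

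**Figure D1:**
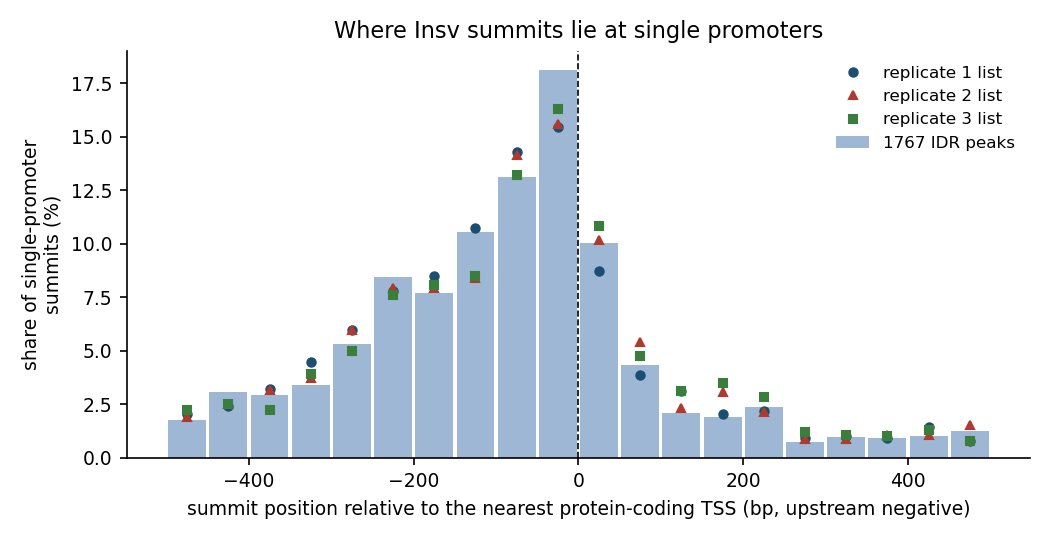
Share of single-promoter summits (%, y axis) by position relative to the nearest protein-coding TSS (bp, x axis, upstream negative) in intervals of 50 bp. Bars are the 1767 IDR peaks and points are the class in each replicate list; the interval from -50 bp to the TSS is the fullest, at 18.1%, and the replicate points keep the same shape.

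The 500 bp limit cut through a thin part of this distribution. Just inside it, at 500 bp, were peaks at Moe, which encodes the membrane-cytoskeleton linker Moesin, CG17097 and CG42353, with ranks of 476, 1053 and 4475 among the 4753 peaks. Just outside, at 501 or 502 bp, were peaks at ph-p, a Polycomb group gene, Surf4 and CG42808, with ranks of 1381, 497 and 4419. More than 450 bp from the TSS there were 53 members, and past the limit but no more than 550 bp away there were 52 peaks outside the class.

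The 25 strongest members belonged to 24 genes and ranked between 1 and 68 in the series. Dpm3 ranked 1 in the series and had the highest score in each of the 3 replicates, with its summit 186 bp upstream. Prosap, which encodes a Shank-type synaptic scaffold, ranked 2 in the series and 2, 2 and 3 in the replicates. rdx ranked 4 in the series and 6, 5 and 4 in the replicates. These 3 were followed by Uba1, the ubiquitin-activating enzyme, mRpL13, tun, Ugt36A1, a glucuronosyltransferase gene, cib, an actin-binding beta-thymosin, Actn3, CG34117 and H15, a T-box gene. The rest were Pkc98E, a protein kinase C, Alg3, lobo, nuf, an adaptor of recycling endosomes that had 2 of the 25, gol, a RING-finger gene, r, which encodes the first enzymes of pyrimidine synthesis, PpV, a protein phosphatase, Polr3A, Hmt-1, lace, which makes sphingolipid precursors, Abl, a tyrosine kinase, dlg1, a junction scaffold, and Hr78, a nuclear receptor. The mix holds housekeeping enzymes, kinases and developmental regulators alike.

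These 25 also ranked high in each replicate, though they were chosen by score from a list made with the same replicates. The replicate region that held each summit ranked no lower than 80 of 30000 in any replicate, a score percentile of 99.7 or more (the share of that replicate's 30000 regions at or below it). Of the 25, 22 lay upstream of the TSS and 5 at inner starts. Within 50 bp of the summit, 5 held an Insv site, taken here and below as either the palindrome or its wider degenerate form, 2 held an Elba site, and 6 held an M1BP site, a DRE, or one of the core promoter elements Motif 6 and Motif 7. Their regions were 806 to 2155 bp long, against a median of 510 bp over all members.

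Several genes collected more than a single peak. Of the 1432 nearest genes, 1148 had 1, 247 had 2, 24 had 3, 12 had 4, and Rtnl1 had 5. Rtnl1, a reticulon gene of the endoplasmic reticulum, had its 5 peaks at 4 separate places nearest to 4 of its starts, with ranks between 97 and 2508. The strongest of the 12 genes with 4 peaks were SNF4Agamma, the gamma subunit of AMP-activated kinase, wrd, a regulatory subunit of protein phosphatase 2A, ush, a zinc-finger cofactor of GATA factors, and Pdk1, a kinase of insulin signalling. The best of their 4 peaks ranked 130 at SNF4Agamma, 149 at wrd, 179 at ush and 312 at Pdk1. At wrd and ush the 4 summits fell into 2 places each, so part of the count is several summits in a single region.

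No difference in strength was detected between single-promoter peaks and peaks at head-to-head promoters, the class most like them, and their difference in repeatability depended on the replicate. The 10% of all peaks with the highest scores held 175 single-promoter peaks (9.90%) and 117 head-to-head peaks (9.46%), an odds ratio of 1.05 with a 95% interval of 0.823 to 1.35 (p = 0.708 by the exact test of Fisher, two-sided). By the same exact test the odds ratio was 1.32 (p = 0.042) when pairs were limited to starts at most 500 bp apart and 0.899 (p = 0.388) at 2000 bp, so its direction depends on where pairs end. Over all peaks, 67.9% had their summit in the strongest regions of all 3 replicates. The share was 67.6% of single-promoter peaks (1195) and 70.8% of head-to-head peaks (876), an odds ratio of 0.861 (interval 0.735 to 1.01, exact p = 0.0654).

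The replicates differed in this. Replicate 1 held 83.5% of single-promoter and 88.9% of head-to-head peaks (odds ratio 0.632, exact p = 2.73e-05), replicate 2 held 89.9% and 91.5% of them, and replicate 3 held 85.2% and 83.2%. The order of the classes was thus the other way round in replicate 3, but no difference was detected there (odds ratio 1.17, interval 0.956 to 1.42, exact p = 0.139). Nor was one detected in replicate 2 (odds ratio 0.823, exact p = 0.145). Held by both other replicates, the odds ratio was 1.04 without replicate 1 (exact p = 0.687), 0.838 without replicate 2 (exact p = 0.0367) and 0.736 without replicate 3 (exact p = 0.000916). The sequence around the summits also differed in composition: the median GC content of the windows, 50 bp to either side, was 42.6% at single promoters and 37.6% at head-to-head promoters, and motif results within a common range of GC content are given with the motifs.

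The Insv site was concentrated at the strong peaks and rare at the others. Of the 1767 members, 99 (5.60%) had an Insv site within 50 bp of the summit, and 28 (1.58%) had an Elba site. In the strongest 10% of members the Insv site stood at 26.6% of summits (20.6% to 33.5%, Wilson), in the next 10% at 12.4% and in the third at 5.08%. From the fifth group on, no more than 2.26% had it. In the replicates' own lists the strongest 10% held it at 27.3% ± 3.42 and the next at 10.4% ± 3.04 (SD, n = 3), so the steep fall was present in each ranking. The median rank of members with an Insv site was 538 of 4753, against 2416 over all members, and 96.0% of them were held by all 3 replicates, against 67.6% of all members. The share held goes with rank, at 100% of the strongest 10% of members and 9.66% of the weakest, and was not compared at equal rank.

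The Elba site showed the same placement, at 7.91% of the strongest 10% and at most 1.70% of every other group, with a median rank of 548. CCAATCAG, a sequence of 8 bases close to both, was at 35 members with a median rank of 538. The promoter elements were not confined to the strong peaks. The M1BP site stood at 6.78% of the strongest 10%, 1.13% of the third group and 4.55% of the weakest, and its 69 members had a median rank of 2683. In the replicate lists the M1BP site and the DRE had their highest means in the strongest 10%, at 7.16% ± 0.941 and 6.22% ± 0.635 (SD, n = 3). The means of the other groups there reached at most 4.55% for the M1BP site and 3.78% for the DRE. The DRE was at 66 members, with a median rank of 2143.5, Motif 7 at 64, with 2960.5, and GAGAGAG at 68, with 2488. The ranks of these elements lay around the median of the class. A total of 1290 members (73.0%) held no Insv site, Elba site, CCAATCAG, M1BP site, DRE, CAGCTG, Motif 6, Motif 7 or GAGAGAG within 50 bp of the summit, and their median rank was 2530.

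**Figure D2:**
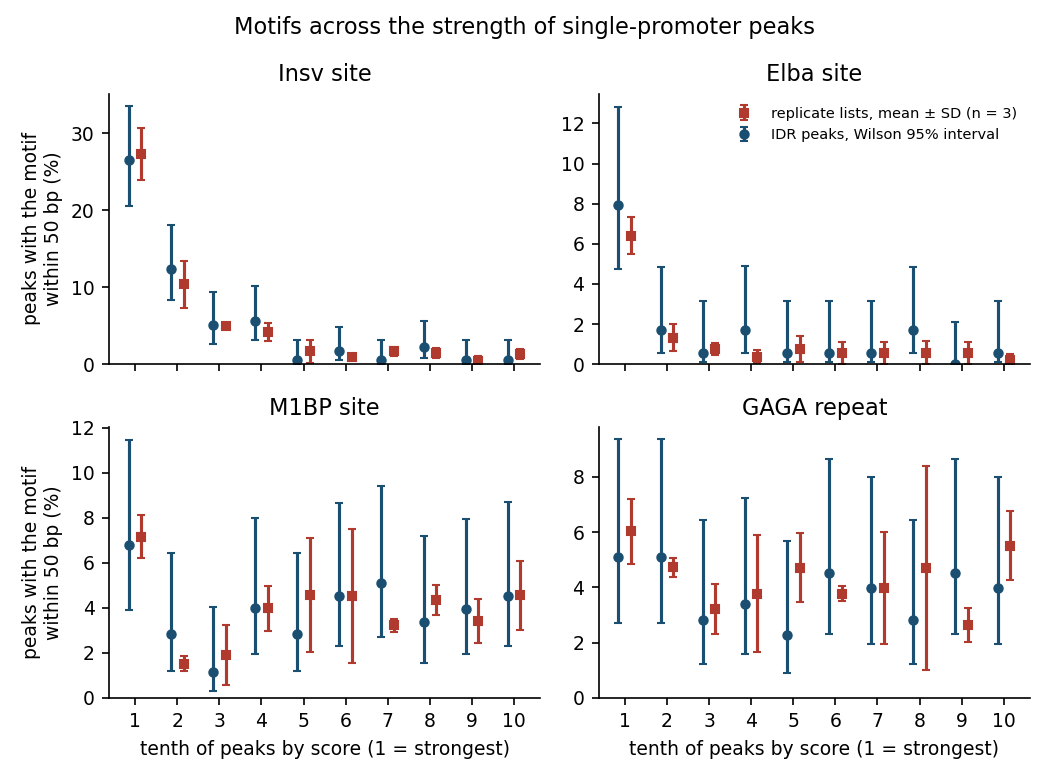
Share of single-promoter peaks with a motif within 50 bp of the summit (%, y axis) in 10 groups by score (x axis, 1 is the strongest). Circles are IDR peaks with Wilson 95% intervals and squares the mean ± SD of the 3 replicate lists; the Insv site is at 26.6% and the Elba site at 7.91% in the strongest group, the M1BP site is at 6.78%, then 1.13% in group 3 and 4.55% in group 10, and the GAGA repeat shows no clear trend.

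No association between BEN-domain sites and promoter elements at the same summit was detected. Of the 120 members with an Insv or Elba site, 13 (10.8%) also had an M1BP site, a DRE, Motif 6 or Motif 7, and of the 1647 without, 178 did (10.8%), an odds ratio of 1.00 with an interval of 0.552 to 1.82. The 13 with both kinds had a median rank of 291, and all were held by the 3 replicates. Of the 225 members with an Insv site within 250 bp of the summit, 29.3% had it within 25 bp, the highest share of the 6 elements measured, with no test of the differences. That share was 23.0% of 74 for the Elba site, 20.7% of 184 for the DRE, 16.0% of 225 for Motif 7, 15.2% of 210 for the M1BP site and 8.38% of 382 for GAGAGAG. Motif matches are letters in a window and say nothing of which protein was there.

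Head-to-head summits differed from single-promoter summits in promoter elements and not detectably in the Insv site. The Insv site was at 5.60% of single-promoter and 4.53% of head-to-head summits, an odds ratio of 1.25 (interval 0.894 to 1.75, by Fisher's exact test with Benjamini-Hochberg adjustment over 14 motifs, adjusted p = 0.366). It was 0.943 (exact test, adjusted p = 0.903) when the TSS window was 1000 bp. Away from coding starts the share was 8.58%. Over the 14 motifs, 4 (28.6%) passed the threshold of 0.05. GAGAGAG was more frequent at single promoters, at 3.85% against 0.889% of head-to-head summits (odds ratio 4.46, exact test, adjusted p = 2.29e-06). CGATA, part of the site of the boundary factor BEAF-32, was less frequent, at 21.2% against 27.2% (odds ratio 0.717, exact test, adjusted p = 0.000867), as were the DRE, which contains it, at 3.74% against 5.98% (odds ratio 0.610, adjusted p = 0.0167), and Motif 7, at 3.62% against 6.31% (odds ratio 0.558, adjusted p = 0.00396). Of the peaks away from coding starts, 3.32% held GAGAGAG, near the single-promoter share, and 12.4% held CGATA. The DRE was at 0.400% of them and Motif 7 at 1.20%.

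In the replicate lists the GAGAGAG share was 4.31% ± 0.661 at single promoters and 0.937% ± 0.111 at head-to-head promoters, and the Motif 7 share was 3.53% ± 0.408 and 6.12% ± 0.582 (SD, n = 3). The threshold was passed in all 3 replicates by GAGAGAG, Motif 7 and the BEAF-32 element, and in 2 by the DRE. CGATA with no DRE in the same window was at 17.4% of all single-promoter and 21.3% of all head-to-head summits (odds ratio 0.782, exact p = 0.00934). This check was chosen after the values had been seen. Among windows between the quartiles of GC content of the class, GAGAGAG had an odds ratio of 1.72 (exact test, adjusted p = 0.556) and the DRE 0.621 (adjusted p = 0.104), so neither call was kept there, and 2 motifs passed. When only the 1176 peaks nearest to an outermost TSS were set against the head-to-head peaks, none of the 14 motifs passed and 2 had an unadjusted p under 0.05: GAGAGAG (odds ratio 2.42) and Motif 7 (odds ratio 0.619), both at an adjusted p of 0.122 in the exact test. This restriction was chosen after the values had been seen.

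Within the class, inner and outermost starts carried different elements. This comparison was chosen after the values had been seen and was made on the IDR peaks only, and 3 of the 14 motifs (21.4%) passed. GAGAGAG stood at 7.28% of the 591 summits at inner starts and 2.13% of the 1176 at outermost starts (odds ratio 3.61, adjusted exact p = 4.51e-06). The DRE was at 1.52% of summits at inner starts and 4.85% at outermost starts (odds ratio 0.304, exact test, adjusted p = 0.00132), and CGATA at 15.1% and 24.2% (odds ratio 0.554, adjusted p = 4.4e-05). The M1BP site was at 2.54% and 4.59% and did not pass (exact test, adjusted p = 0.130). The Insv site was at 5.92% of inner and 5.44% of outermost summits, an odds ratio of 1.09 with an interval of 0.715 to 1.67. Rank and GC content were alike in both groups, with median ranks of 2420 and 2410.5 and a median GC content of 42.6% in each.

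**Figure D3:**
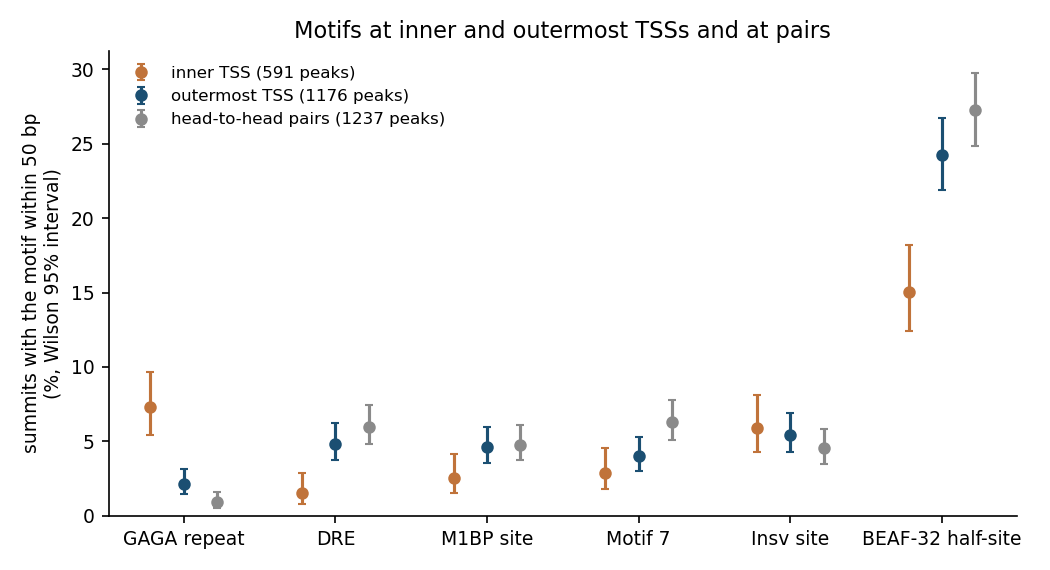
Share of summits with each motif within 50 bp (%, y axis, Wilson 95% intervals) at inner TSSs, at outermost TSSs and at head-to-head pairs. The GAGA repeat is at 7.28% of inner, 2.13% of outermost and 0.889% of head-to-head summits, and the DRE and the BEAF-32 half-site (CGATA) run in the opposite order, while the Insv site is near 5% in all 3.

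Seen from the genes, 1227 of the 9295 unpaired protein-coding genes (13.2%) had their outermost TSS no more than 500 bp from a summit and are called bound here, 1225 of them by a member of the class. The share was 12.8% ± 0.489 in the replicate lists (SD, n = 3), and 820 of the 1227 were also bound in all 3 of them. Among genes in head-to-head pairs, 42.1% had such a summit. A single summit can lie within 500 bp of both starts of a pair, so this share is not directly comparable with that of unpaired genes. Bound unpaired genes were longer than unbound ones, those with no summit within 1000 bp of any of their starts, with a median of 4208 bp against 1881 bp. They also had several annotated starts more often, at 42.6% of bound and 20.5% of unbound genes. Bound was judged at the outermost start alone and unbound at every start, so this definition favours genes with few starts among the unbound. In neither group were 379 unpaired genes. The median GC content of their promoters was 38.3% and 39.0%.

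The promoters of bound genes were rich in both Insv sites and housekeeping elements and poor in TATA boxes. From 250 bp before to 50 bp after the outermost TSS, 13 of 16 motifs (81.2%) differed between the 1227 bound and 7689 unbound promoters past an adjusted p of 0.05, 12 of them higher in bound promoters. The M1BP site was in 13.5% of bound and 3.25% of unbound promoters (odds ratio 4.66, adjusted p = 6.12e-41 in the exact test, over the 16). The DRE was in 11.98% and 4.64% (odds ratio 2.80), Motif 7 in 12.1% and 5.05% (odds ratio 2.60), and Motif 6 in 3.42% and 1.01% (odds ratio 3.46). GAGAGAG was in 11.8% and 6.20% (odds ratio 2.03), and CAGCTG, the E-box form of core promoters also called Motif 5, in 20.5% and 14.9% (odds ratio 1.47). All of these passed in each replicate.

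The Insv site had the largest odds ratio next to that of its degenerate form, and the Elba site one of the smallest that passed. An Insv site was in 52 bound promoters (4.24%) and 60 unbound ones (0.780%), which gave an odds ratio of 5.63 with an interval of 3.86 to 8.20 (exact test, adjusted p = 1.37e-16). This interval overlaps that of the M1BP site, 3.79 to 5.72. Over the replicate lists it was in 4.21% ± 0.302 of bound and 0.786% ± 0.0316 of unbound promoters (SD, n = 3). Its degenerate form alone had an odds ratio of 11.2 (2.69% against 0.247%) and the palindrome one of 4.31 (2.53% against 0.598%). The Elba site was in 1.47% and 0.819% (odds ratio 1.80, adjusted p = 0.042 by Fisher's exact test), which passed in 1 of the 3 replicate lists. Over all protein-coding promoters of the same length, 1.46% held an Insv site, 7.70% an M1BP site and 9.36% a DRE.

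The TATA box was the only one of the 16 to pass the test with a lower share in bound promoters. It lay between 45 and 15 bp before the TSS in 44 bound promoters (3.59%) and 891 unbound ones (11.6%), which gave an odds ratio of 0.284 with an interval of 0.208 to 0.386 (exact test, adjusted p = 2.25e-20), and its odds ratio over the replicates was 0.226 to 0.288. Among the 44, the strongest peaks were at Vha16-1, a proton pump subunit gene, E(spl)m2-BFM, imd, an innate immunity adaptor gene, Nacalpha, cib and CG17097. GCCAT, the core of the Pho site, CAGGTAG, the site of the early factor Zelda, and the Initiator did not pass. Among genes with a single annotated TSS only, a restriction added after the values had been seen, 13 motifs again passed, and the Insv site had an odds ratio of 6.90.

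**Figure D4:**
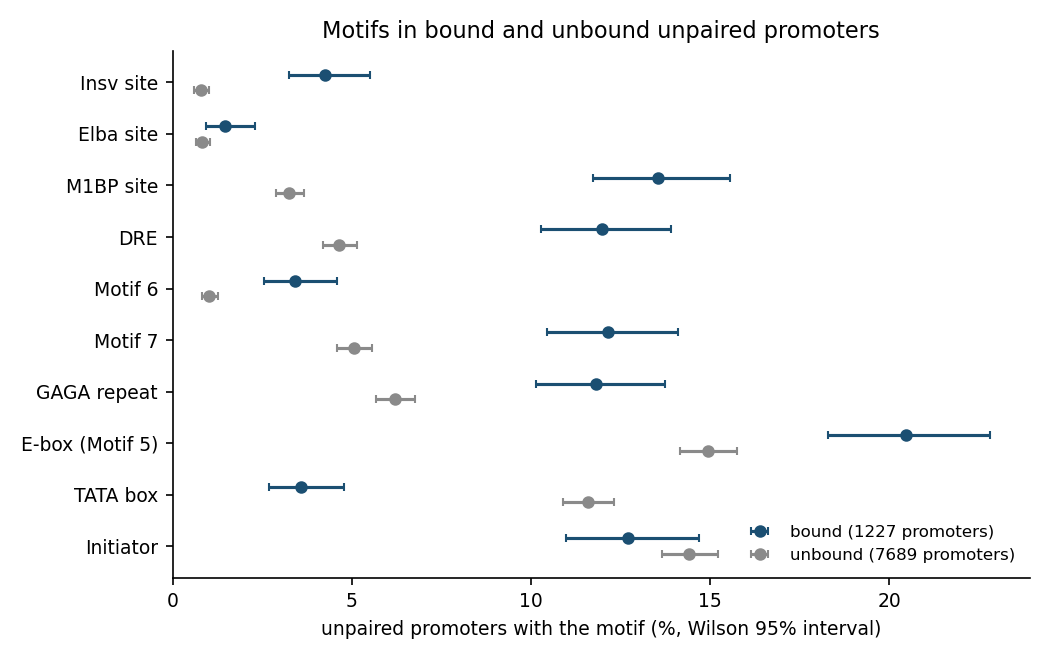
Share of unpaired promoters that hold a motif (%, x axis, Wilson 95% intervals) for 1227 bound and 7689 unbound promoters. The M1BP site, DRE, Motif 6, Motif 7, GAGA repeat, E-box and Insv site are more frequent in bound promoters, the TATA box is less frequent (3.59% against 11.6%), and the Initiator intervals meet.

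Several elements had nearly the same median position in bound and unbound promoters, and the others lay apart. The M1BP site had its median position at -1 bp, next to the TSS, in bound promoters and at 0.5 bp in unbound ones. The DRE was at -45 and -46 bp, Motif 7 at -47 and -48 bp, and Motif 6 at -61.5 and -48 bp. GAGAGAG lay further out, at -96.5 bp in bound and -119 bp in unbound promoters, and the Insv site at -91 and -88.5 bp. The Elba site was at -88 bp in 18 matches of bound promoters and -115 bp in 64 of unbound ones, and CAGCTG at -42 and -63.5 bp. The medians of bound and unbound promoters were thus within 5 bp for the M1BP site, DRE, Motif 7 and Insv site, and further apart for Motif 6, GAGAGAG, the Elba site and CAGCTG; no test of position was run.

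Gene groups were read against the 13.2% of all unpaired genes, as counts with no test. Of the 38 unpaired cytosolic ribosomal protein genes, 27 were bound (71.1%, Wilson interval 55.2% to 83.0%), and each replicate list held 26 of the 38. RpS26 ranked 110 in the series, with score percentiles of 99.7, 99.6 and 99.6 in the replicates. RpL41 followed at rank 581 and RpL23A at rank 734. None of the 27 promoters held an Insv or Elba site and 14 held an M1BP site, DRE, Motif 6 or Motif 7, so the other 13 held neither kind. Where a ribosomal protein gene has a near-identical copy, how shared reads were placed is not given in the sources used here.

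Other housekeeping lists had lower shares than the cytosolic ribosomal protein genes. The 24 translation initiation factor genes had 10 bound, led by eIF2Bgamma at rank 158, eIF6 and eIF3h. Mitochondrial ribosomal protein genes had 6 of 18 bound, led by mRpL13 at rank 12, tko at 129 and mRpL40 at 235. Aminoacyl-tRNA synthetases, which load tRNAs, had 4 of 11 (GluRS-m, SerRS and AspRS-m the strongest), and proteasome subunits 4 of 13 (Prosalpha5, Rpn9 and Rpn6 the strongest). Respiratory chain subunits had 8 of 49 (16.3%), led by ND-ASHI, ATPsynC and ND-MWFE, and Mediator subunits 1 of 9, MED4, both near the background. No odorant or gustatory receptor gene of 106 and no cuticle protein gene of 83 was bound, with upper Wilson limits of 3.497% and 4.42%.

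Among developmental lists the E(spl) and Bearded complexes stood highest. Most of their genes encode the basic helix-loop-helix repressors and Bearded-family proteins that Notch signalling switches on. Of their 15 unpaired genes 11 were bound (73.3%), with 7, 12 and 10 bound in replicates 1, 2 and 3. Brd ranked 164 in the series, with a summit 375 bp downstream of its TSS and score percentiles of 99.2, 99.4 and 99.6 in the replicates. E(spl)m2-BFM ranked 653, with percentiles of 96.8, 97.5 and 98.0. E(spl)malpha-BFM ranked 1231, with percentiles of 69.3, 95.8 and 96.8, low in replicate 1 only. Of the 11 promoters, 9 had a TATA box and none an Insv or Elba site. They are thus 9 of the 44 bound promoters with a TATA box.

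The 8 other bound members of these complexes ranked between 1802, at E(spl)m3-HLH, and 4660, at Kaz-m1. All of the 8 but E(spl)m3-HLH and E(spl)m7-HLH had a lower percentile in replicate 1 than in both other replicates. E(spl)m8-HLH, for example, had 85.1 in replicate 1, 93.8 in replicate 2 and 94.4 in replicate 3, while E(spl)m3-HLH had 95.4, 93.9 and 92.6. This list therefore rested more on replicates 2 and 3 than on replicate 1.

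Of the 21 listed genes of the Notch pathway itself 20 were matched to the annotation, and 5 of the 9 unpaired ones were bound: fng, which modifies the receptor, at rank 256, gro, the corepressor Groucho, at 1306, and N, the receptor, at 1554 were the strongest. The neural fate list had 8 of 23 bound (34.8%), but 17.4%, 34.8% and 65.2% in replicates 1, 2 and 3, the widest spread of the 17 lists. Its strongest members were brat, a translational repressor of neural stem cells that shares the rank 83 peak with Polr1D, elav, an RNA-binding protein of neurons, at 625, and gcm, the glial regulator, at 2098. Signalling ligands and receptors had 9 of 23 bound, with tkv, a BMP receptor gene, wg and hh the strongest. Segmentation and Hox regulators had 6 of 29 (20.7%), with opa, Antp and wg the strongest. Cell cycle regulators had 10 of 21 (dup, E2f1 and Dp the strongest), Polycomb and Trithorax group genes 5 of 14 (Su(z)2, ph-p and trx), and insulator and promoter factors 3 of 9 (CTCF, mod(mdg4) and BEAF-32). In the segmentation, Polycomb and insulator lists, too, 1 listed symbol each was not matched and was not analysed here.

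**Figure D5:**
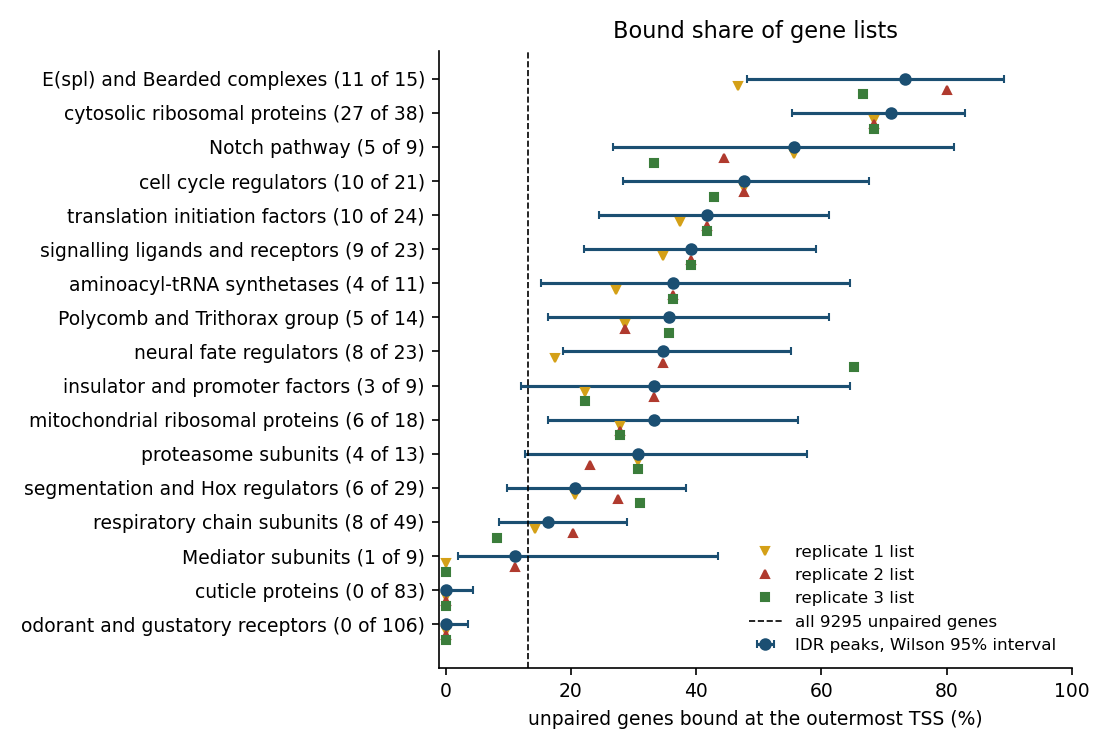
Share of the unpaired genes of each list that were bound at the outermost TSS (%, x axis; counts beside each name), with Wilson 95% intervals for the IDR peaks and a point per replicate list. The dashed line is the 13.2% of all 9295 unpaired genes; the E(spl) and Bearded complexes and the cytosolic ribosomal proteins lie highest, the receptors and cuticle proteins at 0, and the neural fate list spreads most over the replicates.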

How the data were processed

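Insv-GFP was mapped in 3 biological replicates of whole embryos, a single group. Per the file headers, the authors called relaxed region lists for each replicate and for the pooled replicates against a control alignment, and deposited the peaks passing IDR. In these deposited lists the signal value is the authors' score, of unstated scale, used only as a rank within a list; the significance column holds −log10 q-values, by which the authors' regions were counted at 0.05; and the summit is a deposited offset in bp. The sources used here do not give the aligner, peak caller, IDR threshold or read depth. No sequence from arm 2R is printed. The relaxed lists held 30000 regions each. Only dm6 lists were used.

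Positions count from 1 on dm6, genes are from Ensembl release 115 (BDGP 6.54; 13945 protein-coding genes, 2436 head-to-head pairs with 4650 genes), and sequence is from the RefSeq assembly of the same build. Motifs were sought on both strands, by name alone where letters vary (degenerate Insv site, Motif 6 and Motif 7); CGATA lies within the DRE, and CCAATTGG matches can also be degenerate sites. Comparisons used Fisher's exact test (scipy 1.17.1), two-sided, on counts of regions or promoters with Benjamini-Hochberg adjustment. Regions and genes are not replicates, and neighbours can share a peak. Motif tests of single-promoter against head-to-head summits and of bound against unbound promoters were therefore repeated in the 4753 strongest regions of each replicate. Tests of inner against outermost starts, elements at the same summit, CGATA without a DRE and the strongest peaks by class used IDR peaks only. The 3 replicates alone cannot give an exact sign-flip p below 0.25. Wilson 95% intervals cover counting error only. The search and tests were tested on simulated data.

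Named genes are the nearest genes of the 25 strongest members, up to 3 bound genes per list by score, 3 genes on each side of the 500 bp limit, the genes of the printed sequences and the 5 genes with most peaks; genes with a TATA box and the rest of the E(spl) and Bearded list were added after their values were seen. The members, lists, motifs and rules were chosen with earlier results of these data known. Alternatives moved the TSS window (250 and 1000 bp), the pair gap (500 and 2000 bp), the motif window (25 and 100 bp), GC content, the promoter length (100 bp), the overlap rule (50%), the strength limit (strongest 50%) and overlapping summits. In the settings without a replicate, the IDR peaks held by both other replicates were kept or counted. The IDR list itself was still the one made with all 3 replicates, so these settings are a filter on it.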

Additional observations from a re-analysis of the deposited data

How the results depend on the processing

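No paired analysis was possible because the samples form a single group. The number of motifs that differed between bound and unbound promoters, 13, was 12 to 15 over all 11 alternatives, and the CAGCTG motif, M1BP site, GAGAGAG repeat, DRE, CGATA element, Motif 6, CCAATCAG sequence, Motif 7, Insv site and TATA box each passed in all 11. The Elba site in promoters lost its call in 4 of them. The number of motifs that differed between single-promoter and head-to-head summits, 4, was 1 with the TSS window of 250 bp, 1 with motifs within 25 bp, 2 between the GC quartiles and 0 with outermost TSSs only. Summits upstream of the TSS were 70.9% with a window of 1000 bp. The bound share of unpaired genes was 10.8% and 15.7% with windows of 250 and 1000 bp, 14.5% with a pair gap of 500 bp, 6.69% with the stronger 50% of peaks, and 9.35% to 10.2% without a replicate, since these settings change which summits count. The Insv site against head-to-head summits turned to an odds ratio of 0.943 with the window of 1000 bp. The odds ratio of the strongest 10% was 0.959 with that window, 1.32 with a pair gap of 500 bp and 0.899 with 2000 bp. For peaks held by all 3 replicates it was 0.831 (exact p = 0.0198) with a gap of 2000 bp, and 0.736 to 1.04 over the pairs of replicates. The cause was not tested. Unknown read depth limits what weak peaks can show.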
